A study of Mus musculus with 18 samples.

Results

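The tumor suppressor p53 (gene Trp53) and 34 of its known direct target genes were followed in mouse heart after irradiation, 35 of the 30072 genes in the deposited table. The genes were chosen by name, through their Ensembl identifiers, with earlier results of these data known. All 35 were found and passed the filter on low counts. Gtse1 and Pmaip1, with few counts in controls, passed it through the irradiated mice, so that their tests are not independent of the filter. RNA of 18 CD-1 mice, which the labels call a mixed background, was sequenced mouse by mouse, with 6 mice in each of 3 groups. By the methods of the study, the group labelled ctrl had isoflurane and a CT scan of the chest without the 25 Gy dose. The groups labelled 2wk and 6wk had isoflurane, the CT scan and 25 Gy once, and were examined 2 or 6 weeks later. The mice were littermates of both sexes, at least 8 weeks old, and the labels give neither the sex nor the litter of a single mouse. Differences between 2 and 6 weeks are between different mice. Time after the dose cannot be told apart from age at collection, which is not given per mouse. The labels name the intraventricular septum, gamma radiation and untreated controls, whereas the methods of the study name sham-treated controls, X-rays and ventricular tissue. The question was how this transcriptional response stood weeks after a single high dose, in animals followed for changes of cardiac conduction.

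p53 is a transcription factor that Mdm2 keeps at a low level by marking it for degradation. Broken DNA activates the kinases ATM and CHK2, which phosphorylate p53 and free it from Mdm2, and p53 then binds paired decamers, each called a p53 half-site, near its target genes. The targets stop the cell cycle, repair DNA, prime mitochondrial apoptosis, expose death receptors, or, like Mdm2 itself, switch the response off again. In the heart most cardiomyocytes no longer divide, whereas endothelial cells, fibroblasts and leukocytes can.

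The promoters show where such decamers lay. RefSeq windows on GRCm38.p6, from 250 bases before to 50 bases after a start of transcription, were found for 27 of the 35 genes, in 36 windows since some genes have several starts. No window was found for Tnfrsf10b, Perp, Rrm2b, Ddb2, Trp53inp1, Pmaip1, Xpc and Zmat3. The p53 half-site consensus of 10 letters was searched for exact matches, and near-matches were not counted. Since it equals its own reverse complement, a match on either strand is the same match. A half-site stood in windows of 14 of the 27 genes, in 41.7% of their windows, where 8.36% of all 32851 windows hold one. A pair of half-sites 0 to 13 bases apart stood in 1 window, that of Cdkn1a, and in 24 of all windows (0.0731%). Since the genes are known targets, this is a description of the promoters and no test, and binding of p53 was not measured.

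The 250 bases before the start are shown 5′ to 3′ for 4 genes, with half-sites in capitals: Cdkn1a, which holds the pair of exact matches with 12 bases between, Bax and Mdm2, which rose after irradiation with a single half-site, and Ccng1, which holds one and was lower at 6 weeks. In Cdkn1a a near-match, not counted, directly follows the second stretch of capitals, so the counted pair need not be the element that p53 binds.
Cdkn1a, chr17:29090729-29090978, plus strand: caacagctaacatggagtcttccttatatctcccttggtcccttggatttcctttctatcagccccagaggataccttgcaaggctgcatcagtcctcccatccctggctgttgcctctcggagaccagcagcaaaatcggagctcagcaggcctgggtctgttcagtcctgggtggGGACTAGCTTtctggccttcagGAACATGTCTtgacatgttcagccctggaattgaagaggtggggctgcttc
Bax, chr7:45466899-45467148, minus strand: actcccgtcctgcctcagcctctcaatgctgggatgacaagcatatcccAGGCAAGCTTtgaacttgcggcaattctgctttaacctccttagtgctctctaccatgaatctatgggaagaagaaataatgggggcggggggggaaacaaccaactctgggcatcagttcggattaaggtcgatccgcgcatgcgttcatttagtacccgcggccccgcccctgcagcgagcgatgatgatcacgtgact
Mdm2, chr10:117710759-117711008, minus strand: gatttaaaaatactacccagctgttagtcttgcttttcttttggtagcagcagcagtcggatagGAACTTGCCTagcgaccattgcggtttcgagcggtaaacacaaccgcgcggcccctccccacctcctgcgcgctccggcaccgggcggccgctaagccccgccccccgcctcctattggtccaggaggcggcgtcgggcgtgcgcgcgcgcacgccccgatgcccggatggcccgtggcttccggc
Ccng1, chr11:40755287-40755536, minus strand: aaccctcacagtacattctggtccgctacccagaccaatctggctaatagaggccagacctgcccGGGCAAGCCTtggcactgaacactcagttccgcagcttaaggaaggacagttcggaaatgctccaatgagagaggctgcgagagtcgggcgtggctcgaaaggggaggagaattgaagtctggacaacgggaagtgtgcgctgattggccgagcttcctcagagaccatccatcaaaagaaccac

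In the other 10 genes the half-site was the only exact match in its window. It is shown with 10 bases on each side, its place on GRCm38.p6 and the position of its first base from the start of transcription. For Gtse1, Polk, Aen and Sesn1 that start is the downstream one of 2 starts. The first 5 genes were higher at 6 weeks, Sesn1 was lower, and the last 4 were not called by edgeR. Gtse1 and Ddit4l carried the same 10 letters.
Trp53, chr11:69580274-69580303, plus strand, first capital at -75: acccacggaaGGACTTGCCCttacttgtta
Ckap2, chr8:22186003-22186032, minus strand, first capital at -203: ctgtgtctgaAGACATGTCCtgacttgtca
Gtse1, chr15:85859945-85859974, plus strand, first capital at 10: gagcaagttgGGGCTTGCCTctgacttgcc
Polk, chr13:96519399-96519428, minus strand, first capital at -231: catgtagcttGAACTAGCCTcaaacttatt
Aen, chr7:78895927-78895956, plus strand, first capital at -121: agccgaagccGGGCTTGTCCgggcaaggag
Sesn1, chr10:41887256-41887285, plus strand, first capital at -173: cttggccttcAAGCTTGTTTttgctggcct
Ei24, chr9:36797325-36797354, minus strand, first capital at -10: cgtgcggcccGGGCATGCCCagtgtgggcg
Gadd45a, chr6:67037428-67037457, minus strand, first capital at -40: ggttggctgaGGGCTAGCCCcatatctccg
Ddit4l, chr3:137623572-137623601, plus strand, first capital at -90: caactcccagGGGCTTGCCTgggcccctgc
Ppm1d, chr11:85311112-85311141, plus strand, first capital at -132: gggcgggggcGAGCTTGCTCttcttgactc

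Of the 18 genes with a window that were higher at 6 weeks, 8 held a half-site, as did 6 of the 9 others. Genes with large rises, such as Phlda3, Eda2r, Sesn2 and Gdf15, had no match in their windows, which says only that these letters are not in the bases searched.

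**Figure D1:**
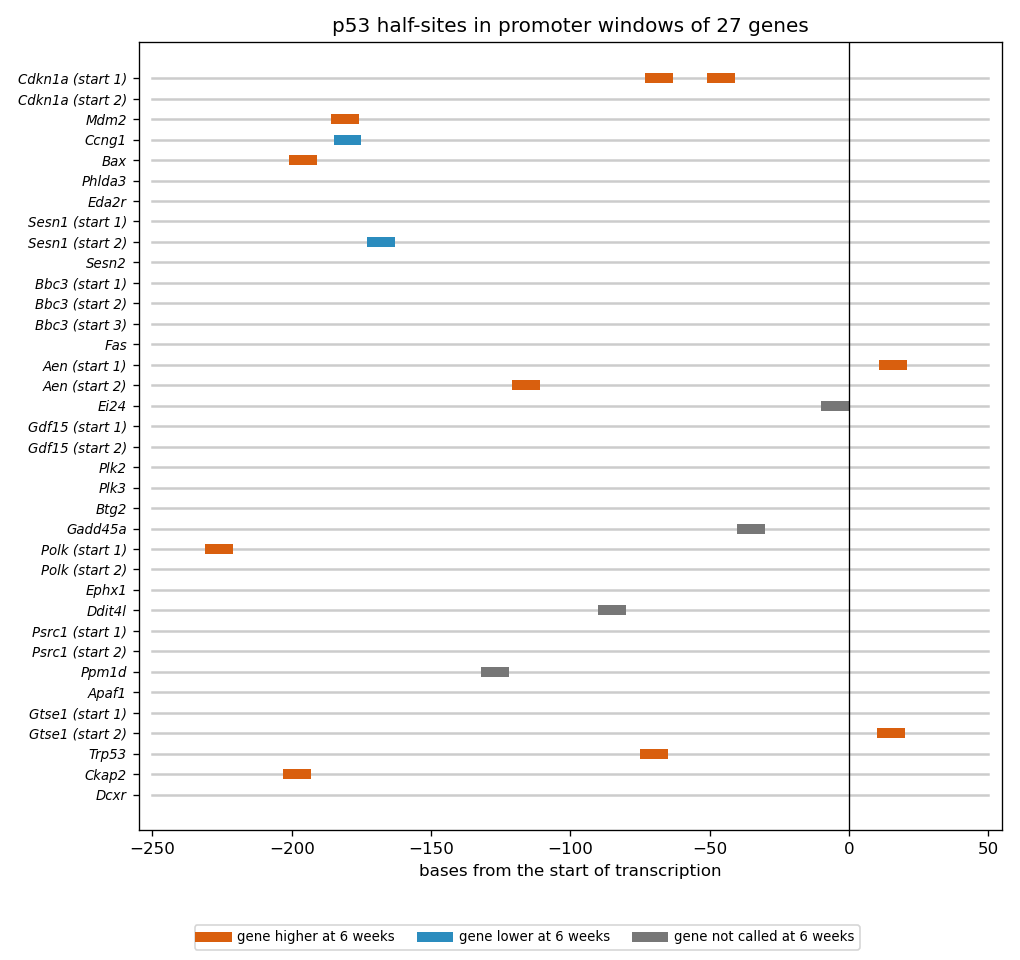
Positions of p53 half-sites (colored blocks) in the 36 promoter windows of 27 genes (grey lines), in bases from the start of transcription at 0, with several starts of a gene numbered by chromosome position. Blocks are colored by the call of the gene at 6 weeks. Cdkn1a is the gene with a pair of half-sites, and genes that were higher, lower or not called all hold single ones.

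Counts of a mouse summed to between 11522987 and 15501019, and 3 counts, taken as the detection floor, equalled 0.194 to 0.26 CPM (read counts scaled to a common library size with edgeR's TMM factors). The floor covers counting error only. Genes of the mitochondrial genome held 23.2% of ctrl counts in the median, 20.2% of 2-week counts and 17.4% of 6-week counts, and TMM factors lay between 0.844 and 0.991, 0.962 and 1.03, and 1.04 and 1.13. Without TMM scaling the median of all log2 fold changes rose to 0.15 (2-week) and 0.24 (6-week group), so that directions are given relative to the bulk of genes. Y-linked genes summed to 0 to 1.76 CPM in replicates 1 to 3 and to 129 to 164 CPM in replicates 4 to 6 of every group, and with their level as a covariate the calls of the 35 genes were the same.

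The p53 targets called higher at 2 weeks were all called higher at 6 weeks too, along with 5 others. Of these 5, Tnfrsf10b, Gdf15 and Psrc1 were also higher at 6 than at 2 weeks. Aen and Polk did not pass in that comparison (edgeR, adjusted P 0.605 and 0.323). A gene was called where the adjusted P of edgeR's quasi-likelihood test, corrected over all 15054 genes tested, was under 0.05. At 2 weeks 17 of the 35 genes were higher than in controls, where 3.09% of all genes tested were, and 0 were lower (all genes 1.93%). Because the 35 were chosen with earlier results known, the shares of all genes are given for scale and not as a test. DESeq2 called 18 higher and Rrm2b lower at 2 weeks, where it called 703 of all 15054 genes higher and 526 lower. No other of the 35 genes was lower at an unadjusted P under 0.05 in edgeR's test than Rrm2b and Sesn1. At 6 weeks 22 were higher (all genes 13.5%) and 3 lower (all genes 11.5%), and the 17 of 2 weeks were among the 22. The same shares of all genes apply to the counts by role further below. From TPM (a level per transcript length, not TMM-scaled) the split at 6 weeks was 27 higher and 0 lower, with Plk2, Btg2, Xpc, Ddit4l and Ppm1d added to the 22. On log2(TPM + 1), 7354 of all 15054 genes were higher at 6 weeks and 118 lower, so these added genes moved with a shift of many genes. With a log2 fold change above 1 asked for as well, 11 genes remained at 2 weeks (all genes 0.737%) and 15 at 6 weeks (all genes 5.27%).

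All 6 mice at 2 weeks lay above all 6 controls for 14 genes (all genes 1.96%), and all 6 at 6 weeks for 18 (all genes 5.8%). For Rrm2b all 6 mice at 6 weeks lay below the controls (all genes 3.43%). The median log2 fold change of the 35 genes was 0.51 at 2 weeks and 0.73 at 6 weeks, and both comparisons share the same controls. Between the irradiated groups 5 genes were higher at 6 than at 2 weeks (all genes 3.31%) and 0 were lower (all genes 2.01%, 0 in DESeq2 and limma as well, and only Ccng1 at an unadjusted P under 0.05). Of the 5, Gdf15 and Psrc1 also passed a log2 fold change of 1 (all genes 0.963%), and for Plk3 and Psrc1 the groups did not overlap (all genes 2.27%). The count of 5 fell to 3 without 2-week replicate 1, 2-week replicate 4 or 6-week replicate 5, when Tnfrsf10b and Plk3 no longer passed. RNA of bulk tissue cannot tell more RNA per cell from more cells of a type that holds it.

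**Figure D2:**
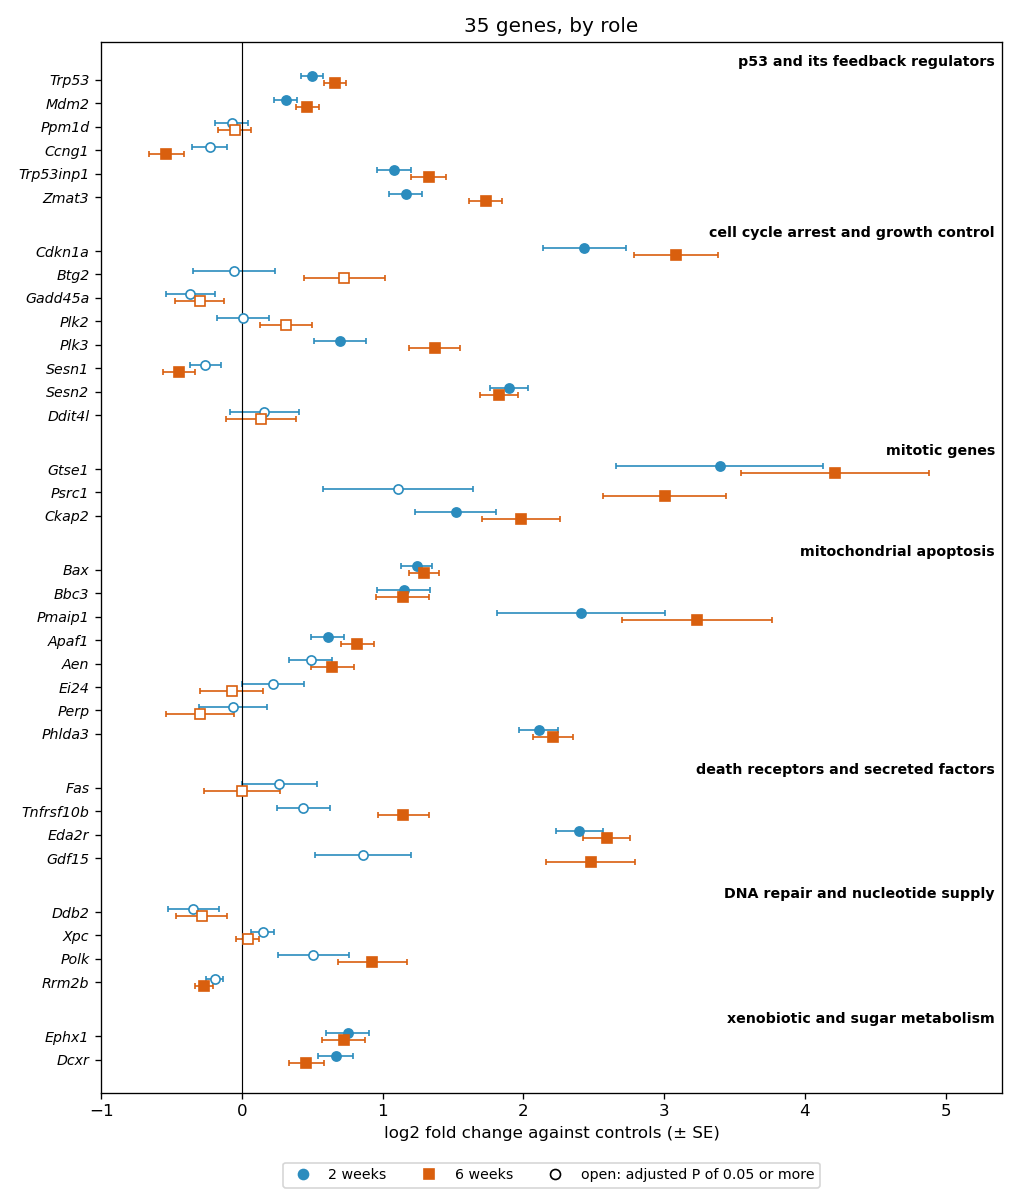
Log2 fold changes against controls (x axis, with SE) of the 35 genes in 7 groups by role, at 2 weeks (circles) and 6 weeks (squares). Filled symbols mark an adjusted P under 0.05. Ddb2, Xpc and Rrm2b lie close to 0, whereas Cdkn1a, Phlda3, Eda2r and Sesn2 stand to the right at both times.

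Among p53 and its feedback regulators, 4 of 6 genes were higher at both times. Trp53 (ENSMUSG00000059552, chr11:69580359-69591873) encodes p53 itself, whose activity is set mainly at the protein level. For Trp53 the ctrl mice had a lowest, median and highest level of 16.1, 20.1 and 23 CPM, the 2-week mice of 26.4, 28.1 and 30.9, and the 6-week mice of 29, 30.9 and 35.1. Neither irradiated group overlapped the controls. Trp53 rose 1.41-fold over ctrl in the 2-week group (log2 0.50 ± 0.0781 SE, adjusted P 0.00134) and 1.58-fold in the 6-week group (log2 0.66 ± 0.078 SE, adjusted P 1.11e-05). Mdm2 (ENSMUSG00000020184, chr10:117688875-117710758), the ubiquitin ligase that removes p53, rose by a smaller factor. Mdm2 levels spanned 48.2 to 61.2 CPM in the ctrl group (median 54.4), 56.6 to 77.8 in the 2-week group (median 67.9), and 64.4 to 86.9 in the 6-week group (median 75.1). The 2-week mice overlapped the controls and the 6-week mice did not. The 2-week group exceeded ctrl 1.24-fold (log2 0.31 ± 0.0829 SE, adjusted P 0.0364), and the 6-week group exceeded it 1.38-fold (log2 0.47 ± 0.0829 SE, adjusted P 0.000474). At 2 weeks its call was lost without control replicate 1, 2, 3 or 6 or 2-week replicate 1, 2, 3 or 6 (adjusted P up to 0.0801 over all alternatives), and with the replicate number as a block (adjusted P 0.0637).

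Zmat3 (ENSMUSG00000027663, chr3:32334792-32366014), an RNA-binding zinc finger protein, was higher in the 2-week mice and higher still in the 6-week mice. Zmat3 CPM had its median at 19 in the ctrl group (15.9 to 20.4), at 42.9 in the 2-week group (33.6 to 49.2), and at 64.3 in the 6-week group (45.9 to 74.6). No irradiated mouse overlapped the controls, and the irradiated groups overlapped each other. Zmat3 was 2.24-fold higher in the 2-week mice (log2 1.16 ± 0.114 SE, adjusted P 6.33e-06) and 3.32-fold higher in the 6-week mice (log2 1.73 ± 0.115 SE, adjusted P 1.36e-08) than in ctrl mice. It was also higher at 6 than at 2 weeks (log2 0.57 ± 0.11 SE, adjusted P 0.00879). Trp53inp1 (ENSMUSG00000028211, chr4:11156431-11174379), a nuclear partner that strengthens the apoptotic arm of p53, was higher in every irradiated mouse than in any control. In ctrl mice Trp53inp1 ran from 12.9 to 24.4 CPM (median 15), in the 2-week mice from 31.3 to 37.5 (median 36), and in the 6-week mice from 35 to 49.7 (median 40.1). Trp53inp1 rose 2.12-fold over ctrl in the 2-week group (log2 1.08 ± 0.123 SE, adjusted P 5.14e-05) and 2.51-fold in the 6-week group (log2 1.33 ± 0.123 SE, adjusted P 9.38e-07).

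Ccng1 (ENSMUSG00000020326, chr11:40748552-40755311), cyclin G1, which with Mdm2 restrains p53, went the other way. For Ccng1 the ctrl mice had a lowest, median and highest level of 687, 864 and 892 CPM, the 2-week mice of 586, 687 and 799.6, and the 6-week mice of 444, 518 and 747. The 2-week mice overlapped the controls, and of the 6-week mice replicate 5 alone reached their range. Its log2 fold change was -0.23 ± 0.123 SE in the 2-week group (adjusted P 0.311) and it fell by 0.54 on the log2 scale at 6 weeks (SE 0.123, adjusted P 0.00358). With library size as the only scaling it was still called (-0.28, adjusted P 0.0494), and on log2(TPM + 1) it was not (-0.13, adjusted P 0.254). Ppm1d (ENSMUSG00000020525, chr11:85311244-85347066), the phosphatase Wip1 that resets p53, did not pass at either time. Ppm1d had group medians of 11.3 (ctrl), 11.4 (2wk) and 10.3 CPM (6wk), and differed from ctrl by log2 -0.07 ± 0.117 SE, adjusted P 0.778, in the 2-week group and by log2 -0.05 ± 0.117 SE, adjusted P 0.804, in the 6-week group. On log2(TPM + 1) Ppm1d turned to 0.29 at 6 weeks (adjusted P 0.0376).

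**Figure D3:**
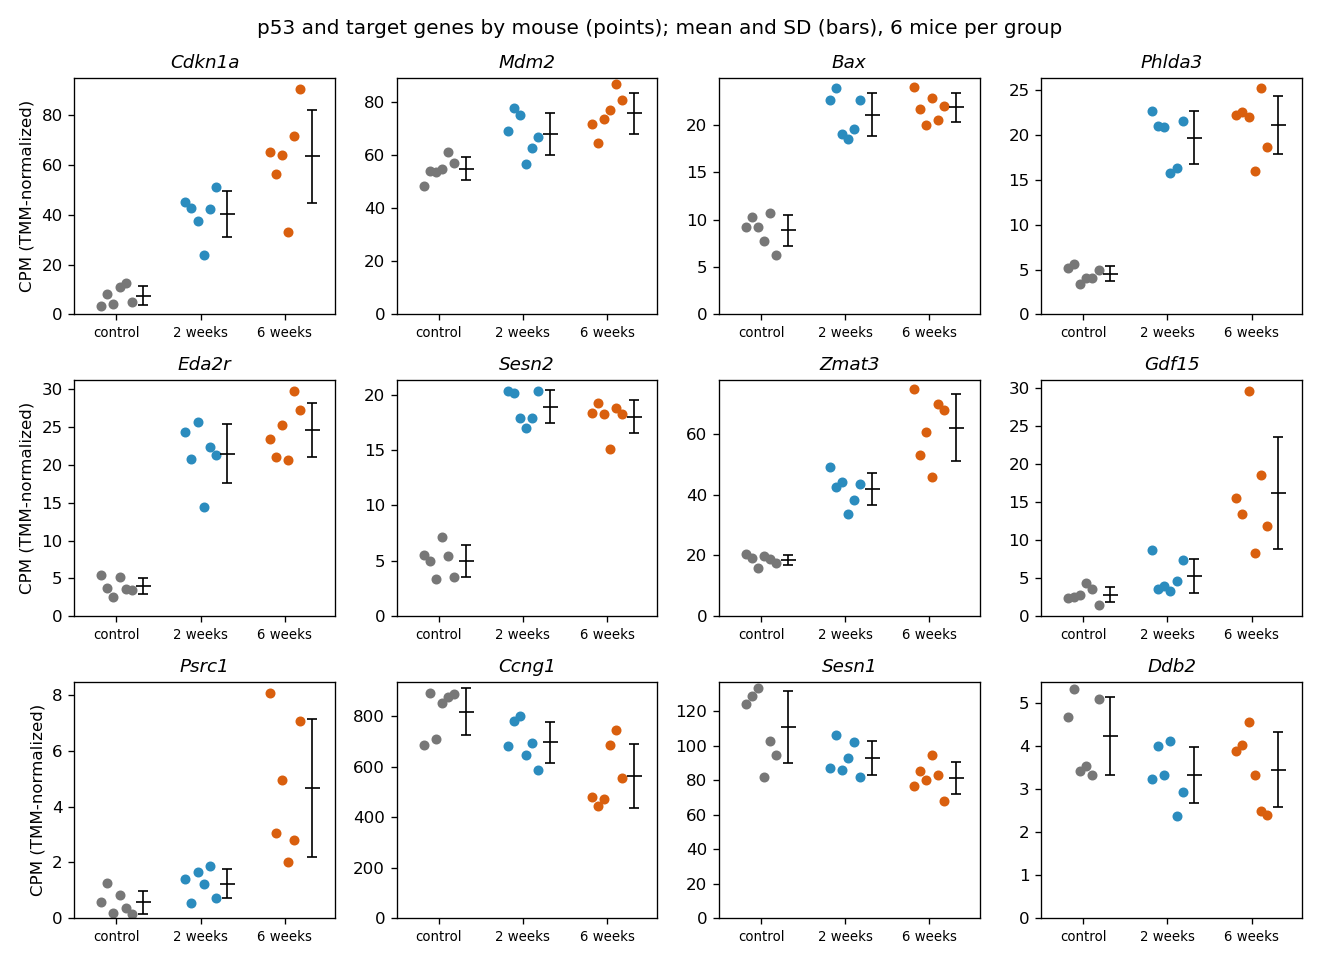
CPM of 12 genes in each mouse (points) with the mean and SD of each group (bars), 6 mice per group and a linear axis from 0. Cdkn1a, Bax, Phlda3, Eda2r, Sesn2 and Zmat3 show no overlap between controls and irradiated mice, Gdf15 and Psrc1 part from controls at 6 weeks, and Ddb2 overlaps throughout.

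Of the genes of cell cycle arrest and growth control, Cdkn1a, Sesn2 and Plk3 were higher at both times, Sesn1 was lower at 6 weeks and the other 4 did not pass. Cdkn1a (ENSMUSG00000023067, chr17:29090976-29100727) encodes p21, the inhibitor of cyclin-dependent kinases through which p53 stops the cell cycle. Cdkn1a levels spanned 3.25 to 12.8 CPM in the ctrl group (median 6.58), 23.7 to 51.4 in the 2-week group (median 42.5), and 33.2 to 90.5 in the 6-week group (median 64.8). Neither irradiated group overlapped the controls, and replicate 4 was the lowest mouse of each irradiated group. The 2-week group exceeded ctrl 5.4-fold (log2 2.43 ± 0.295 SE, adjusted P 0.000121), and the 6-week group exceeded it 8.49-fold (log2 3.09 ± 0.298 SE, adjusted P 1.47e-06). The step from 2 to 6 weeks did not pass (log2 0.65 ± 0.263 SE, adjusted P 0.154). Sesn2 (ENSMUSG00000028893, chr4:132492032-132510501), sestrin 2, which restrains the growth kinase mTORC1, was higher at both times. Sesn2 CPM had its median at 5.22 in the ctrl group (3.33 to 7.15), at 19 in the 2-week group (17 to 20.3), and at 18.3 in the 6-week group (15 to 19.2). All irradiated mice lay above all controls. Sesn2 was 3.73-fold higher in the 2-week mice (log2 1.9 ± 0.135 SE, adjusted P 6.08e-08) and 3.55-fold higher in the 6-week mice (log2 1.83 ± 0.135 SE, adjusted P 6.06e-08) than in ctrl mice. The irradiated groups differed by log2 -0.07 ± 0.121 SE, adjusted P 0.792.

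Plk3 (ENSMUSG00000028680, chr4:117128655-117133963), a stress-activated polo-like kinase, was higher in the 2-week mice and higher still in the 6-week mice. In ctrl mice Plk3 ran from 3.19 to 4.92 CPM (median 4.56), in the 2-week mice from 5.15 to 9.02 (median 6.65), and in the 6-week mice from 9.34 to 17.2 (median 9.8). The 3 groups did not overlap. Plk3 rose 1.62-fold over ctrl in the 2-week group (log2 0.70 ± 0.187 SE, adjusted P 0.0375) and 2.59-fold in the 6-week group (log2 1.37 ± 0.181 SE, adjusted P 3.13e-05). It was also higher at 6 than at 2 weeks (log2 0.68 ± 0.17 SE, adjusted P 0.0297), with 6-week replicate 5 far above the other mice. Its call at 2 weeks was lost without control replicate 1, 3, 5 or 6 or 2-week replicate 1, 2, 5 or 6 (adjusted P up to 0.0901), and that between the irradiated groups without 2-week replicate 1, 2, 3 or 4 or 6-week replicate 5 (up to 0.0667). Sesn1 (ENSMUSG00000038332, chr10:41809935-41908424), the paralog sestrin 1, differed from Sesn2 in direction. For Sesn1 the ctrl mice had a lowest, median and highest level of 81.6, 113 and 133 CPM, the 2-week mice of 81.5, 89.9 and 106, and the 6-week mice of 67.9, 81.6 and 94.7. The groups overlapped. Sesn1 had a log2 fold change of -0.26 ± 0.111 SE in the 2-week group (adjusted P 0.195) and fell by 0.45 on the log2 scale at 6 weeks (SE 0.112, adjusted P 0.00636). The call was lost with library size alone (-0.19, adjusted P 0.189) and on log2(TPM + 1) (-0.01, adjusted P 0.926).

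The growth arrest genes that did not pass were Btg2, Gadd45a, Plk2 and Ddit4l. Btg2 (ENSMUSG00000020423, chr1:134075170-134079120), an antiproliferative cofactor of mRNA decay, varied widely among 6-week mice, from 65.6 to 278 CPM. Median Btg2 CPM was 75.9 in ctrl, 77.2 in the 2-week and 115 in the 6-week group, with differences from ctrl of log2 -0.06 ± 0.289 SE, adjusted P 0.939, and log2 0.73 ± 0.289 SE, adjusted P 0.0731, in that order. DESeq2 called it higher at 6 weeks (adjusted P 0.0395). Gadd45a (ENSMUSG00000036390, chr6:67035096-67037457) acts in growth arrest and DNA repair. Gadd45a had group medians of 12.4 (ctrl), 8.35 (2wk) and 8.49 CPM (6wk), and differed from ctrl by log2 -0.37 ± 0.176 SE, adjusted P 0.251, in the 2-week group and by log2 -0.30 ± 0.176 SE, adjusted P 0.236, in the 6-week group. Plk2 (ENSMUSG00000021701, chr13:110395046-110400844) is a polo-like kinase like Plk3. Median Plk2 CPM was 32 in ctrl, 31.2 in the 2-week and 41.6 in the 6-week group, with differences from ctrl of log2 0.01 ± 0.184 SE, adjusted P 0.984, and log2 0.32 ± 0.183 SE, adjusted P 0.232, in that order. With library size as the only scaling Plk2 passed at 6 weeks (0.57, adjusted P 0.0232), as did Btg2. Ddit4l (ENSMUSG00000046818, chr3:137621612-137628333), an inhibitor of mTOR signaling, had 7 to 26 counts per control mouse. Ddit4l had group medians of 1.12 (ctrl), 1.43 (2wk) and 1.32 CPM (6wk), and differed from ctrl by log2 0.16 ± 0.247 SE, adjusted P 0.77, in the 2-week group and by log2 0.14 ± 0.249 SE, adjusted P 0.743, in the 6-week group. On log2(TPM + 1) Ddit4l was called higher at 6 weeks (0.36, adjusted P 0.0305).

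The 3 mitotic genes had few counts in controls and were all higher at 6 weeks. Gtse1 (ENSMUSG00000022385, chr15:85859745-85876573) is made in S and G2 phase and carries p53 out of the nucleus. Gtse1 levels spanned 0 to 0.347 CPM in the ctrl group (median 0.238), 0.589 to 4.92 in the 2-week group (median 1.25), and 2.08 to 7.16 in the 6-week group (median 2.59). Control replicate 3 had 0 counts and no other control more than 5, below every irradiated mouse. Its summed counts, per summed library size, were higher at 2 weeks by a ratio of 10.8 (exact 95% interval 6.38 to 19.7) and at 6 weeks by 19.1 (exact 95% interval 11.4 to 34.5), intervals that cover counting error only. edgeR's test gave an adjusted P of 0.0114 and 0.000125, and limma voom with quality weights 0.063 and 0.003. Gtse1 entered these tests through the irradiated mice, which passed the filter. Psrc1 (ENSMUSG00000068744, chr3:108383839-108388231), a microtubule protein of the spindle, parted from controls at 6 weeks. Psrc1 CPM had its median at 0.482 in the ctrl group (0.173 to 1.25), at 1.32 in the 2-week group (0.561 to 1.86), and at 4.0 in the 6-week group (2.0 to 8.06). Its log2 fold change was 1.11 ± 0.534 SE in the 2-week group (adjusted P 0.251), 3.0 ± 0.434 SE in the 6-week group (adjusted P 7.8e-05) and 1.89 ± 0.368 SE between the irradiated groups (adjusted P 0.00917), where the groups did not overlap. The ratio of its summed counts to controls was 2.18 (exact 95% interval 1.52 to 3.16) at 2 weeks and 8.24 (6.04 to 11.5) at 6 weeks. These intervals too leave out the spread among mice. Ckap2 (ENSMUSG00000037725, chr8:22168160-22185819) likewise binds spindle microtubules. In ctrl mice Ckap2 ran from 0.37 to 1.89 CPM (median 1.22), in the 2-week mice from 2.62 to 3.89 (median 3.56), and in the 6-week mice from 3.63 to 7.04 (median 4.19). All irradiated mice lay above all controls. The 2-week group exceeded ctrl 2.87-fold (log2 1.52 ± 0.29 SE, adjusted P 0.00592), and the 6-week group exceeded it 3.96-fold (log2 1.99 ± 0.278 SE, adjusted P 5.79e-05).

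Of the genes grouped under mitochondrial apoptosis, some of which act elsewhere in the cell, 5 of 8 were higher at 2 weeks and 6 at 6 weeks. Bax, Bbc3, Pmaip1, Apaf1 and Phlda3 were called at both times, and Aen by edgeR at 6 weeks only. Bax (ENSMUSG00000003873, chr7:45461697-45466898) forms the pore in the outer mitochondrial membrane. For Bax the ctrl mice had a lowest, median and highest level of 6.3, 9.25 and 10.7 CPM, the 2-week mice of 18.6, 21.1 and 23.9, and the 6-week mice of 20.1, 21.8 and 24. No irradiated mouse overlapped the controls. Bax was 2.36-fold higher in the 2-week mice (log2 1.24 ± 0.108 SE, adjusted P 1.11e-06) and 2.45-fold higher in the 6-week mice (log2 1.3 ± 0.108 SE, adjusted P 2.7e-07) than in ctrl mice. Bbc3 (ENSMUSG00000002083, chr7:16308393-16318205) encodes PUMA, a BH3-only protein that sets Bax free. Bbc3 levels spanned 2.5 to 4.36 CPM in the ctrl group (median 2.78), 6.1 to 7.78 in the 2-week group (median 6.89), and 4.75 to 10.3 in the 6-week group (median 6.63). Again the controls lay below all irradiated mice. Bbc3 rose 2.22-fold over ctrl in the 2-week group (log2 1.15 ± 0.188 SE, adjusted P 0.00213) and 2.21-fold in the 6-week group (log2 1.14 ± 0.188 SE, adjusted P 0.000245). Pmaip1 (ENSMUSG00000024521, chr18:66458533-66465565) encodes NOXA, another BH3-only protein, and had 0 to 4 counts per control mouse. Pmaip1 CPM had its median at 0.13 in the ctrl group (0 to 0.278), at 0.691 in the 2-week group (0.561 to 1.17), and at 1.26 in the 6-week group (0.347 to 2.86). Controls did not overlap either irradiated group, and the ratio of summed counts was 5.58 (exact 95% interval 2.93 to 11.7) at 2 weeks and 9.97 (exact 95% interval 5.37 to 20.5) at 6 weeks (adjusted P 0.0221 and 0.000139). Its 2-week call was lost without control replicate 3 or 5 or 2-week replicate 6 and on log2(TPM + 1), with an adjusted P up to 0.0612. Pmaip1 too entered the test through the irradiated mice.

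Phlda3 (ENSMUSG00000041801, chr1:135766119-135769136), a repressor of the survival kinase Akt, rose at both times. In ctrl mice Phlda3 ran from 3.42 to 5.67 CPM (median 4.51), in the 2-week mice from 15.8 to 22.8 (median 21), and in the 6-week mice from 16 to 25.3 (median 22.1). All irradiated mice lay above all controls. The 2-week group exceeded ctrl 4.31-fold (log2 2.11 ± 0.141 SE, adjusted P 3.64e-08), and the 6-week group exceeded it 4.62-fold (log2 2.21 ± 0.141 SE, adjusted P 9.54e-09). Apaf1 (ENSMUSG00000019979, chr10:90989311-91082770) builds the apoptosome on cytochrome c. For Apaf1 the ctrl mice had a lowest, median and highest level of 7.56, 9.1 and 12.3 CPM, the 2-week mice of 12.3, 13.5 and 17.7, and the 6-week mice of 14.5, 16.9 and 18.2. The 2-week mice overlapped the controls by a small margin and the 6-week mice did not. Apaf1 was 1.53-fold higher in the 2-week mice (log2 0.61 ± 0.117 SE, adjusted P 0.00603) and 1.77-fold higher in the 6-week mice (log2 0.82 ± 0.116 SE, adjusted P 6.25e-05) than in ctrl mice. Aen (ENSMUSG00000030609, chr7:78895854-78911209), a nuclease of apoptotic cells, passed at 6 weeks with overlapping groups. Aen levels spanned 23.4 to 35.3 CPM in the ctrl group (median 27.3), 29 to 48 in the 2-week group (median 39.8), and 32.8 to 51.7 in the 6-week group (median 46.2). Its log2 fold change was 0.49 ± 0.151 SE in the 2-week group (adjusted P 0.0681) and 0.64 ± 0.151 SE in the 6-week group (adjusted P 0.00412), and it passed at 2 weeks in DESeq2 and in 6 further alternatives. Ei24 (ENSMUSG00000062762, chr9:36779159-36797393), a protein of the endoplasmic reticulum, and Perp (ENSMUSG00000019851, chr10:18845020-18857073), a tetraspan membrane protein, did not pass. Median Ei24 CPM was 39.3 in ctrl, 41.4 in the 2-week and 38.4 in the 6-week group, with differences from ctrl of log2 0.22 ± 0.222 SE, adjusted P 0.62, and log2 -0.07 ± 0.223 SE, adjusted P 0.855, in that order. Perp had group medians of 76.8 (ctrl), 80.3 (2wk) and 62.9 CPM (6wk), and differed from ctrl by log2 -0.06 ± 0.24 SE, adjusted P 0.915, in the 2-week group and by log2 -0.30 ± 0.241 SE, adjusted P 0.41, in the 6-week group.

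Of the death receptors and secreted factors, Eda2r was higher at both times and Tnfrsf10b and Gdf15 at 6 weeks. Eda2r (ENSMUSG00000034457, chrX:97333840-97377216), the receptor of ectodysplasin A2, was above all controls in every irradiated mouse. Eda2r CPM had its median at 3.65 in the ctrl group (2.59 to 5.4), at 21.8 in the 2-week group (14.4 to 25.6), and at 24.3 in the 6-week group (20.7 to 29.8). Eda2r rose 5.27-fold over ctrl in the 2-week group (log2 2.4 ± 0.167 SE, adjusted P 5.79e-08) and 6.03-fold in the 6-week group (log2 2.59 ± 0.167 SE, adjusted P 9.73e-09). Gdf15 (ENSMUSG00000038508, chr8:70629393-70632456), a secreted stress cytokine that the injured heart releases, was higher at 6 weeks than in either other group. In ctrl mice Gdf15 ran from 1.55 to 4.37 CPM (median 2.64), in the 2-week mice from 3.34 to 8.66 (median 4.3), and in the 6-week mice from 8.3 to 29.6 (median 14.5). The 2-week mice overlapped the controls and the 6-week mice did not, while the irradiated groups overlapped each other. Its log2 fold change was 0.86 ± 0.341 SE in the 2-week group (adjusted P 0.154) and 2.48 ± 0.316 SE in the 6-week group (adjusted P 2.23e-05), with 1.62 ± 0.29 SE between the irradiated groups (adjusted P 0.00549).

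Tnfrsf10b (ENSMUSG00000022074, chr14:69767472-69784411), the mouse receptor of the death ligand TRAIL, was likewise higher at 6 weeks than in either other group. For Tnfrsf10b the ctrl mice had a lowest, median and highest level of 3.15, 4.16 and 6.05 CPM, the 2-week mice of 3.99, 6.14 and 7.86, and the 6-week mice of 7.34, 9.88 and 12.3. The 6-week mice lay above all controls and overlapped the 2-week mice. Its log2 fold change was 0.44 ± 0.189 SE in the 2-week group (adjusted P 0.197), 1.15 ± 0.182 SE in the 6-week group (adjusted P 0.000177) and 0.71 ± 0.174 SE between the irradiated groups (adjusted P 0.0261). The last call was lost without 2-week replicate 1 or 4 or 6-week replicate 5 or 6, with an adjusted P up to 0.0645. Fas (ENSMUSG00000024778, chr19:34290666-34327772), the receptor of Fas ligand, did not pass. Median Fas CPM was 4.1 in ctrl, 5.18 in the 2-week and 4.03 in the 6-week group, with differences from ctrl of log2 0.27 ± 0.268 SE, adjusted P 0.62, and log2 0.00 ± 0.27 SE, adjusted P 0.997, in that order.

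The genes of DNA repair and nucleotide supply had 0 of 4 called at 2 weeks and 1 at an unadjusted P under 0.05 (Rrm2b, which DESeq2 called lower). Ddb2 (ENSMUSG00000002109, chr2:91211572-91236982) and Xpc (ENSMUSG00000030094, chr6:91489305-91515888) recognize damaged bases in nucleotide excision repair and did not pass at either time. Ddb2 had group medians of 4.11 (ctrl), 3.28 (2wk) and 3.61 CPM (6wk), and differed from ctrl by log2 -0.34 ± 0.184 SE, adjusted P 0.307, in the 2-week group and by log2 -0.29 ± 0.183 SE, adjusted P 0.283, in the 6-week group. Median Xpc CPM was 17.7 in ctrl, 19.6 in the 2-week and 18.5 in the 6-week group, with differences from ctrl of log2 0.15 ± 0.0804 SE, adjusted P 0.318, and log2 0.04 ± 0.0807 SE, adjusted P 0.76, in that order. Xpc passed with library size as the only scaling at both times (0.30, adjusted P 0.0283, and 0.31, adjusted P 0.00804). Polk (ENSMUSG00000021668, chr13:96480690-96542579), a polymerase that copies past lesions, was higher at 6 weeks. Polk levels spanned 3.7 to 8.72 CPM in the ctrl group (median 4.65), 4.77 to 12.1 in the 2-week group (median 8.17), and 7.49 to 14.8 in the 6-week group (median 10.6). The groups overlapped. Polk had a difference of 0.51 ± 0.25 SE in the 2-week group (adjusted P 0.261) and of 0.93 ± 0.245 SE in the 6-week group (adjusted P 0.00914). Rrm2b (ENSMUSG00000022292, chr15:37923952-37961318) is the small subunit of ribonucleotide reductase that p53 controls in resting cells. Rrm2b CPM had its median at 34.9 in the ctrl group (33.7 to 37.1), at 30.8 in the 2-week group (26.6 to 33.8), and at 29.1 in the 6-week group (28.1 to 31). It differed by -0.19 ± 0.0618 SE in the 2-week group (adjusted P 0.0784) and fell by 0.27 at 6 weeks (SE 0.0619, adjusted P 0.00373). With library size as the only scaling the 6-week value was -0.01 (adjusted P 0.959), and on log2(TPM + 1) it turned to 0.01 (adjusted P 0.94).

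Both genes of xenobiotic and sugar metabolism were higher at both times. Ephx1 (ENSMUSG00000038776, chr1:180976210-181020904), microsomal epoxide hydrolase, detoxifies epoxides. In ctrl mice Ephx1 ran from 20.3 to 43 CPM (median 29.4), in the 2-week mice from 42.4 to 60.1 (median 51.6), and in the 6-week mice from 41.4 to 61.2 (median 50.6). Controls overlapped the irradiated groups at the edge of their ranges. The 2-week group exceeded ctrl 1.68-fold (log2 0.75 ± 0.152 SE, adjusted P 0.00885), and the 6-week group exceeded it 1.65-fold (log2 0.72 ± 0.152 SE, adjusted P 0.00175). Dcxr (ENSMUSG00000039450, chr11:120725399-120727281) reduces sugars and dicarbonyls. For Dcxr the ctrl mice had a lowest, median and highest level of 5.83, 6.13 and 7.87 CPM, the 2-week mice of 9.47, 9.95 and 12.8, and the 6-week mice of 7.37, 8.67 and 12.2. The 2-week mice lay above all controls and the 6-week mice overlapped them. Dcxr was 1.59-fold higher in the 2-week mice (log2 0.67 ± 0.125 SE, adjusted P 0.00521) and 1.37-fold higher in the 6-week mice (log2 0.46 ± 0.126 SE, adjusted P 0.0116) than in ctrl mice.

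Per length, the order of the genes changed with irradiation. In controls Ccng1 had the highest median TPM of the 35 (261), followed by Sesn1 (44.6), Perp (42.1), Btg2 (28) and Mdm2 (25.3), and Pmaip1 the lowest (0.0503). Cdkn1a stood at rank 19 in controls (3.33 TPM), 8 at 2 weeks (27.6 TPM) and 5 at 6 weeks (49 TPM). At 6 weeks Ccng1 remained first (236 TPM), before Btg2 (59.7), Mdm2 (50.3), Perp (49.9) and Cdkn1a (49), whose ranges over mice overlapped. Eda2r moved from rank 29 to rank 18 and Gdf15 from rank 27 to rank 19, whereas Xpc went from rank 15 to rank 24 and Ppm1d from rank 17 to rank 29. The median TPM of Xpc (4.26 in controls, 6.22 at 6 weeks) and of Ppm1d (3.74 and 4.37) did not fall with the rank.

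Single mice differed in how far the response went. Over the 22 genes that were higher at 6 weeks, the median of log2 (CPM + 0.5) against the control mean was -0.19 to 0.23 in ctrl mice, 0.82 to 1.14 in 2-week mice and 1.08 to 1.55 in 6-week mice. Since the 22 were picked by their call at 6 weeks, the distance of 6-week mice from controls follows from that choice. Replicate 4 of the 2-week group had the lowest value of its group for 14 of the 22 genes, and replicate 4 of the 6-week group for 15. The median of the former was 0.817, close to 0.838 in 2-week replicate 2. Such counts over genes of the same mouse are a description and no test. Replicate 5 of the 6-week group had the highest for 10. Both replicates 4, like all replicates 4 to 6, were on the high side of the Y-linked level, whose part in these values was not tested mouse by mouse.

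**Figure D4:**
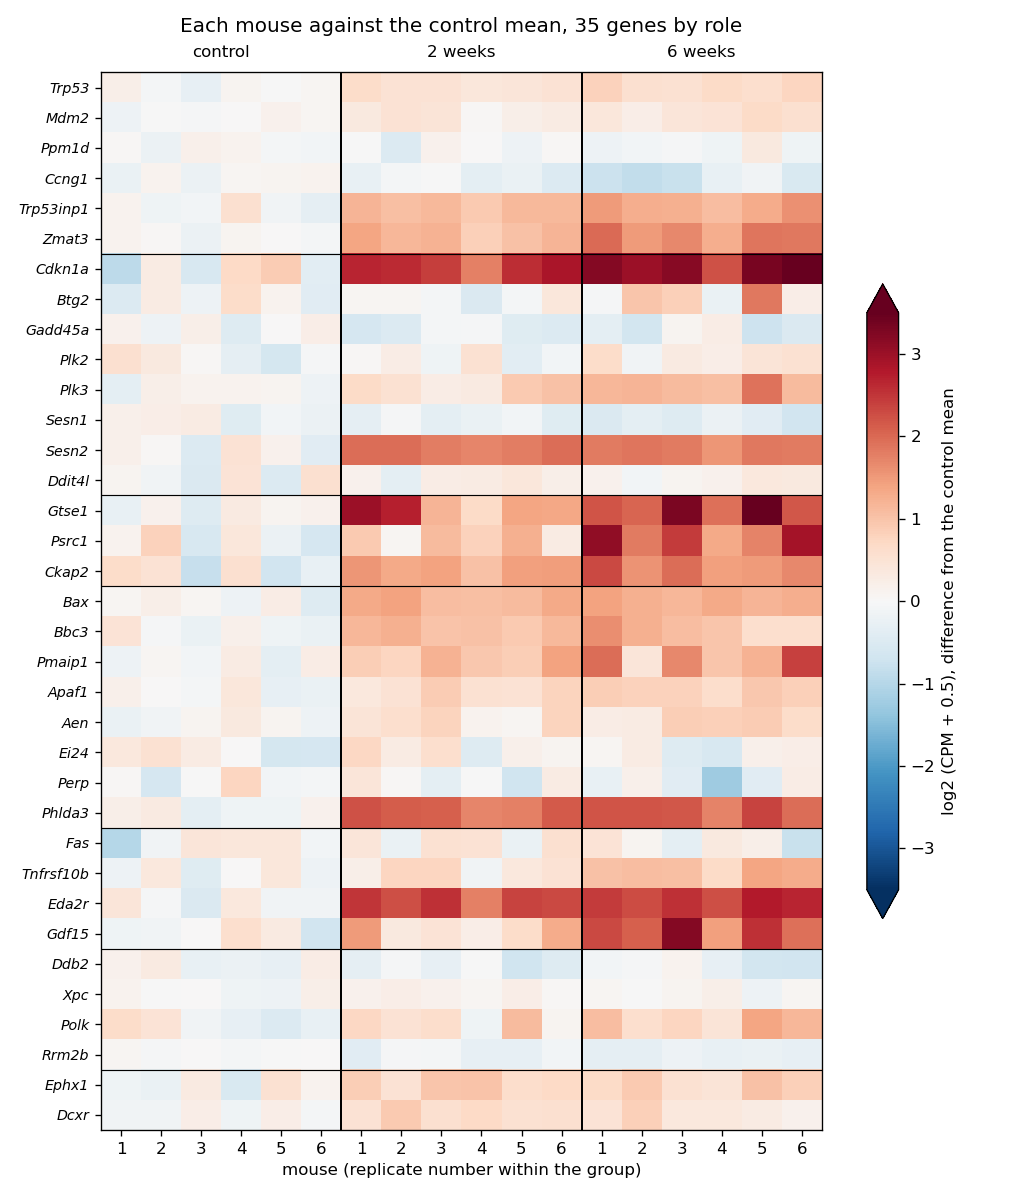
Difference of each mouse (columns, by group and replicate number) from the control mean in log2 (CPM + 0.5), for the 35 genes by role (rows; lines part the roles). Red is above and blue below the control mean. The 22 genes picked by their call at 6 weeks are red in most irradiated mice, and replicate 4 was the lowest mouse for 14 of them at 2 weeks and 15 at 6 weeks.

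Lists of further pathway genes were read in the same fit, and they were drawn up with earlier results of these data known. Of 18 regulators and relatives of p53, such as the kinases that activate it, 17 were tested and 0 were called at 2 weeks (0 by DESeq2, limma voom and at an unadjusted P under 0.05, 1 higher on TPM and 2 with library size alone). Of all 15054 genes, 2774 were higher at 2 weeks on log2(TPM + 1) and 1707 with library size alone. At 6 weeks Chek1, a checkpoint kinase, was higher (log2 1.06 ± 0.341 SE, adjusted P 0.0292) and Hipk2, a kinase of p53, fell by 0.20 (SE 0.0589, adjusted P 0.019), and the median of the list was -0.04. With library size as the only scaling 6 of the 17 were higher and 0 lower, beside 5494 and 326 of all 15054 genes. Of 36 other direct targets 2 were higher at 2 weeks and 12 higher and 4 lower at 6 weeks, with medians of 0.09 and 0.09, where 3.09% of all genes were higher at 2 weeks and 13.5% higher and 11.5% lower at 6 weeks. Ces2e, a carboxylesterase, rose from a ctrl median of 2.82 CPM to 14.2 at 2 weeks (log2 2.36 ± 0.142 SE, adjusted P 8.39e-09) and 8.93 at 6 weeks (log2 1.7 ± 0.145 SE, adjusted P 3.56e-07), and was lower at 6 than at 2 weeks (log2 -0.67 ± 0.123 SE, adjusted P 0.00713). Pidd1, a death domain protein induced by p53, was higher at 2 weeks (log2 1.25 ± 0.246 SE, adjusted P 0.00713) and 6 weeks (log2 1.54 ± 0.241 SE, adjusted P 0.000161), and Rap2b, a small GTPase, at 6 weeks (log2 0.83 ± 0.138 SE, adjusted P 0.000268). Library size alone gave 20 of the 36 higher and 1 lower at 6 weeks, again beside 5494 and 326 of all 15054 genes.

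Genes of G2 and M phase are known to be repressed through p53 and p21, and of a list of 20 most were higher at 6 weeks. At 2 weeks 0 passed (0 by DESeq2 and limma voom, 2 on log2(TPM + 1), 3 on log2(TPM + 0.1), and 2 at an unadjusted P under 0.05), with a median log2 fold change of 0.42, and at 6 weeks 16 were higher and 1 lower, with a median of 1.18. Of all genes tested, 3.09% were higher at 2 weeks, and 13.5% were higher and 11.5% lower at 6 weeks. On log2(TPM + 1) 2774 and on log2(TPM + 0.1) 2990 of all 15054 genes were higher at 2 weeks. Mybl2, a transcription factor of dividing cells, had medians of 0.757, 1.29 and 2.88 CPM in the ctrl, 2-week and 6-week group (log2 1.57 ± 0.311 SE, adjusted P 0.00112). Top2a, the topoisomerase of dividing cells, had 4.85, 10.2 and 15.6 CPM (log2 1.55 ± 0.346 SE, adjusted P 0.00292). Cenpa, a centromeric histone, fell by 0.51 at 6 weeks (SE 0.106, adjusted P 0.00164). Library size alone left 18 of the 20 higher and 0 lower, beside 5494 and 326 of all 15054 genes. Gtse1, Psrc1 and Ckap2, which serve in the same phases, were higher at 6 weeks as well.

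**Figure D5:**
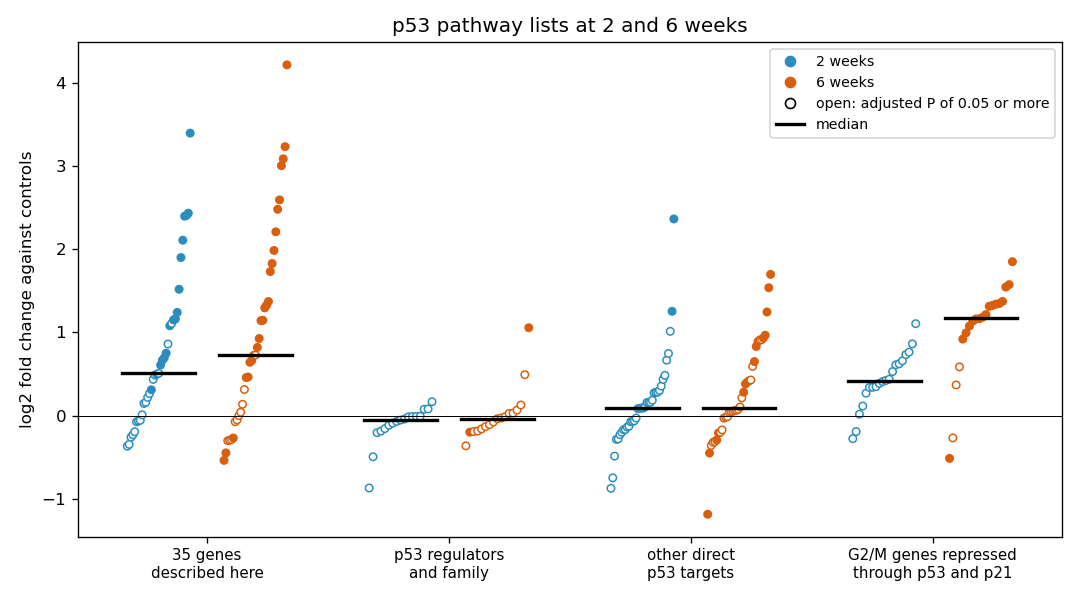
Log2 fold changes against controls (y axis) of each tested gene of 4 lists at 2 weeks (blue) and 6 weeks (orange), with the median as a line. Filled points mark an adjusted P under 0.05. The 35 genes spread upward at both times, and the 20 G2/M genes at 6 weeks include 14 called above 1 (all genes 5.27%).

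Markers of cell types moved in the same mice. For scale, 13.5% of all genes tested were higher and 11.5% lower at 6 weeks, and 1.93% were lower at 2 weeks. All 7 cardiomyocyte markers were lower at 6 weeks and 1 at 2 weeks, with sums of 32651 to 49106 CPM (ctrl), 34592 to 42758 (2wk) and 26894 to 35203 (6wk). With library size alone 2 of the 7 were lower at 6 weeks, beside 326 of all 15054 genes. Of the macrophage markers 4 of 6 were higher and 1 lower at 6 weeks, with sums of 104 to 261 CPM (ctrl), 163 to 205 (2wk) and 208 to 286 (6wk). Of the B cell markers 3 of 4 tested were higher at 6 weeks (sums of 3.08 to 9.51 CPM (ctrl), 3.76 to 13.5 (2wk) and 7.15 to 14.3 (6wk)), and of those of T and NK cells 1 of 3 (sums of 0.185 to 1.5 CPM (ctrl), 0.654 to 1.72 (2wk) and 1.91 to 3.41 (6wk)). Of the endothelial markers 2 were higher and 2 lower at 6 weeks, of the fibroblast and red blood cell markers 1 each was lower, and of the smooth muscle, Schwann cell, adipocyte and skeletal muscle markers 0 were called by edgeR at 6 weeks (0 by DESeq2, limma voom and at an unadjusted P under 0.05), whereas library size alone called 1 smooth muscle marker higher and TPM 2. Of all 15054 genes, library size alone called 5494 higher at 6 weeks and log2(TPM + 1) 7354. Skeletal muscle markers summed to at most 0.916 CPM in any mouse. The part of these shifts in the values of the p53 targets was not tested.

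Reads of some genes could be shared with a neighbor. In GENCODE M21 on GRCm38, exons of Ddb2 overlap Acp2 on the other strand, and 20.2% of the 31-base words of Ddb2 transcripts also occur in Acp2. Overlaps on the other strand were also found for Cdkn1a, Gadd45a, Ei24, Plk3 and Rrm2b, and on the same strand for Bax (with Gm45808, 9.89% of its words) and Ephx1 (with Gm36961, 2.72%). Trp53 shared 8.79% of its words with the pseudogene Trp53-ps, which had 0 counts in all mice. The strand setting of the counting is not given in the sources used here, so counts of these genes are uncertain to that extent.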

How the data were processed

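RNA of 18 mouse hearts, 6 per group by their labels, was sequenced. The authors deposited estimated counts and TPM per gene, from STAR, Salmon 1.0 and tximport on GRCm38 with Ensembl annotation. Estimated counts were rounded. Genes reaching 0.23 CPM in 6 or more mice (15054 of 30072) were tested in edgeR 4.0.16 (R 4.3.3) by the quasi-likelihood F test, two-sided, with TMM scaling and all 3 groups in 1 fit, with Benjamini-Hochberg adjustment over all genes tested. SEs are the absolute log2 fold change over the square root of F. Symbols were paired with 29301 identifiers and 771 had none.

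Every one of the 35 genes is named, and of each further list at most 3 called genes with the smallest adjusted P. The genes and lists were chosen with earlier results of these data known. Alternatives were DESeq2 1.42.0, limma 3.58.1 voom with sample quality weights, limma on log2(TPM + 1) or log2(TPM + 0.1), other scalings and filters, only the groups compared, a Y-linked covariate, the replicate number as a block, and each mouse left out. Each mouse is 1 library, and no 2 mice had identical counts. Gene positions came from GENCODE M21, and the statistics were tested on simulated data.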

Additional observations from a re-analysis of the deposited data

Results flagged for a closer look

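In groups of 6 mice, a mouse stood apart where its gap to the next, over the range of the group, passed the 95% critical value of Dixon. Over 105 groups there were 4 such values, and chance gives about 1 in 20. Sesn2 was lowest in 6-week replicate 4 (15 against 18.2 CPM, ratio 0.754), Plk3 highest in 6-week replicate 5 (17.2 against 10.2 CPM, ratio 0.891), Ppm1d highest in the same mouse (14.5 against 11.1 CPM, ratio 0.754), and Perp highest in control replicate 4 (134 against 80.5 CPM, ratio 0.65).

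The change against controls differed between 2 and 6 weeks for 5 genes, by the test of 6 against 2 weeks in edgeR. The difference, 6 weeks less 2 weeks on the log2 scale, was 0.57 for Zmat3, 0.71 for Tnfrsf10b, 1.62 for Gdf15, 0.68 for Plk3 and 1.89 for Psrc1.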

How the results depend on the processing

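Over all alternatives 14 to 22 of the 35 genes were called at 2 weeks, 25 to 27 at 6 weeks and 3 to 6 between the irradiated groups. Of all genes tested, 453 to 3026 were called at 2 weeks, 3089 to 7472 at 6 weeks and 323 to 1202 between the irradiated groups. With 1 mouse left out the ranges of the 35 genes were 14 to 18, 25 to 26 and 3 to 5. At 6 weeks 6 genes changed sign on TPM. Of these Rrm2b, called lower by edgeR, went to 0.015 on log2(TPM + 1) and 0.017 on log2(TPM + 0.1), Ppm1d was called higher at 0.29 and 0.36, and Ei24, Gadd45a, Ddb2 and Perp were called in neither, where the median of all genes moved to 0.29 and 0.37. Library size alone gave 25 higher and 1 lower at 6 weeks, losing Sesn1 and Rrm2b, beside 5494 and 326 of all 15054 genes. It moved the median of all genes to 0.24. The cause was not tested. The replicate number as a block gave 16, 25 and 5 calls, losing Mdm2 at 2 weeks. The numbers go with the Y-linked level, low in replicates 1 to 3 and high in replicates 4 to 6 of every group, but do not pair single mice by the labels: same-numbered mice had correlations of deviations between -0.083 and 0.106, over 0.1 in 1 of 6 pairs at 2 weeks, 1 of 6 at 6 weeks and 0 of 6 between the irradiated groups, and 0, 1 and 2 mice correlated best with their own number. Depth limits Pmaip1 and Gtse1, with at most 4 and 5 counts in a control mouse. It also limits Psrc1 and Ckap2, which had as few as 2 and 4 counts in a control mouse.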
